A study of Mus musculus with 12 samples.

Results

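The genes described here are 47 mouse interferon-stimulated genes, a list of genes known for their induction by interferons, measured in mouse embryonic fibroblasts that carried an oncogenic form of RAS (RASV12), a short hairpin RNA against the p53 transcript (shp53), or both. Members were found by matching the accession printed for each array probe to its RefSeq gene. Of the 47 genes, 44 had at least 1 probe, and 42 passed the filter on dim probes and were tested among 14447 genes. No probe matched Oas1b, Mx1 or Mx2, and the single probes for Oas3 and Slfn5 did not pass the filter.

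There were 4 groups of 3 arrays, all from fibroblasts of C57BL/6 embryos at E12.5 to E13.5. RASV12-first cells received the RASV12 vector and then the shp53 vector, and the design text calls them TS cells. shp53-first cells received the same pair of vectors in the opposite order and are called T cells there. RASV12 cells and shp53 cells received a single vector each. Every sample thus carried at least 1 viral vector, and no untransduced or empty-vector sample was analysed here. Between a two-vector and a single-vector group, an added insert and the receipt of another viral vector therefore cannot be told apart. The cells were bulk cultures, so fewer cells making a transcript and less transcript per cell cannot be told apart.

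Type I interferons are secreted proteins that cells release after sensing foreign or misplaced nucleic acid. They bind a receptor made of Ifnar1 and Ifnar2, whose kinases Jak1 and Tyk2 activate transcription factors such as STAT2. With IRF9, STAT2 is part of a complex that binds the interferon-stimulated response element (ISRE) near its target genes. The targets include the complex's own subunits, the sensors that start the response, and effectors that block viral RNA and protein. Fibroblasts both make interferon beta and respond to it.

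The 6 promoters below were chosen because the first 3 belong to genes that were high in both two-vector groups, Irf7 is a gene of the same behaviour without the motif, and Oas1a and Slfn8 differed between the orders of the vectors. Each sequence runs from 250 bases before to 50 bases after the RefSeq transcription start (GRCm38.p6), 5′ to 3′ on the gene's strand, and capitals mark matches to an ISRE core, GAAA followed by any 2 bases and GAAA, on either strand. Isg15 lies at chr4:156200769-156201068 on the minus strand, Ifit1 at chr19:34640639-34640938 and Ifit3 at chr19:34583279-34583578 on the plus strand, Irf7 at chr7:141266375-141266674, Oas1a at chr5:120907476-120907775 and Slfn8 at chr11:83020761-83021060, all on the minus strand.
Isg15: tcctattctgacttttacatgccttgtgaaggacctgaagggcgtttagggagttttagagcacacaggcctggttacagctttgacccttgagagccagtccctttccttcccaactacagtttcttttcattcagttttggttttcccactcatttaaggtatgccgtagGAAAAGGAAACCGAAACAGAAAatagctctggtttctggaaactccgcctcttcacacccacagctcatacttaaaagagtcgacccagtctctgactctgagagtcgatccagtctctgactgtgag
Ifit1: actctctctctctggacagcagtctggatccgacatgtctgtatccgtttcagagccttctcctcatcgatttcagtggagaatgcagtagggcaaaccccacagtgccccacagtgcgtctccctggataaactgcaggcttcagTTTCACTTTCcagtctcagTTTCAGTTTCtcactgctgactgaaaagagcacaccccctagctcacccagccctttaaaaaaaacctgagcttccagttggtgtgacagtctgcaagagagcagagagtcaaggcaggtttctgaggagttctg
Ifit3: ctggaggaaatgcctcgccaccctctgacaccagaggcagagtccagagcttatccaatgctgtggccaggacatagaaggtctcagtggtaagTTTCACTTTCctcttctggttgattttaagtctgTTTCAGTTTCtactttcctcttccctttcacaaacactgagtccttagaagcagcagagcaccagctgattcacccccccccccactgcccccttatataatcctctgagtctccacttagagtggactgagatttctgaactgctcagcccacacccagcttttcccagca
Irf7: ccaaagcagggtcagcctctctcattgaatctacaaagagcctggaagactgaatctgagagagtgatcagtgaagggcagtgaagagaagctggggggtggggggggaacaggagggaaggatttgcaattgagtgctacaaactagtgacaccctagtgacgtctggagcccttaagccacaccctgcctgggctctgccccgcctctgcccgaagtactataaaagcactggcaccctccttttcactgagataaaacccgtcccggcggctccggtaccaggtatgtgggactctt
Oas1a: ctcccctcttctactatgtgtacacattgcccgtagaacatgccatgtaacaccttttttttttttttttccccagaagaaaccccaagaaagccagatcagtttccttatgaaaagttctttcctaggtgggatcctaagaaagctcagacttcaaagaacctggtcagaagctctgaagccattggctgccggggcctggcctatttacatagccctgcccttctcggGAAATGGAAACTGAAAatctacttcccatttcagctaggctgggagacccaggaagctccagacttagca
Slfn8: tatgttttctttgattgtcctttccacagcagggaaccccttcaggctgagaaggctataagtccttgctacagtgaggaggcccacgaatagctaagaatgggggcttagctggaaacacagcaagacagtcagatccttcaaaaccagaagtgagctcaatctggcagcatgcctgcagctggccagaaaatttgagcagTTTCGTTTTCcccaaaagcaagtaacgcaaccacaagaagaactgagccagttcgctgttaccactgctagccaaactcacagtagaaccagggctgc

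The Isg15 window held 3 overlapping matches, spanning bases -78 to -57 from the start. Ifit1, Ifit3 and Oas1a held 2 each, those of Oas1a overlapping, and Slfn8 held 1. Of 35 members with a promoter in the table, 17 (48.6%) held the core, against 1079 of 27025 genes (3.99%). A match describes the letters in these windows and was not tested as a binding site.

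Values are levels on the log2 scale, the scanner's processed signal relative to the 75th percentile of its array, so a difference of 1 is a 2-fold difference. Between 56.6% and 62.4% of probes were well above background on each array, and the number of arrays, 3 a group, limits the precision. An exact permutation test of 3 arrays against 3 cannot give a two-sided p below 0.1, so tests rest on limma fitted across all genes. Trp53, the target of the hairpin, measured -4.14, -4.01 and -3.83 in RASV12-first cells, -3.98, -3.43 and -3.44 in shp53-first cells, -0.35, -0.75 and -0.58 in RASV12 cells, and -3.22, -3.55 and -3.06 in shp53 cells, low in the 3 groups that carry the hairpin. All 10 fibroblast markers were well above background on all 12 arrays. Of 12 macrophage and leukocyte markers, 4 to 6 were well above background on the RASV12-first arrays, 4 to 6 on the shp53-first arrays, 9 or 10 on the RASV12 arrays and all 12 on the shp53 arrays. Their summed signal on the log2 scale ranged over 2.38 to 3.11, 2.96 to 3.48, 3.05 to 4.32, and 3.71 to 6.97 in the same order of groups. A single marker, Itgam, made up most of that sum on the RASV12-first, shp53-first and RASV12 arrays. It measured 3.01, 2.33 and 2.25 in RASV12-first cells, 3.07, 2.85 and 3.39 in shp53-first cells, and 3.38, 4.18 and 2.70 in RASV12 cells. The macrophage gene C1qc, at -7.58, -8.25 and -8.23 in RASV12-first cells, -7.96, -8.53 and -7.39 in shp53-first cells, -5.75, -3.78 and -5.58 in RASV12 cells, and 4.09, -0.38 and 4.14 in shp53 cells, was not well above background on any two-vector array, and neither were Ptprc, Adgre1, Cx3cr1 and Tyrobp.

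In every group a pair of arrays was closer to each other (r = 0.993 to 0.998 over genes) than to the remaining one (r = 0.967 to 0.981). The SD of the difference within such a pair, 0.21 to 0.37, was near that between replicate spots of a probe on one array, 0.18 to 0.33, although the design text describes independent biological replicates. The arrays that stood apart were RASV12-first replicate 1, shp53-first replicate 1, RASV12 replicate 2 and shp53 replicate 2. With all 4 left out, 31, 42, 40, 40, 39 and 42 of the 42 members were called in RASV12-first minus shp53-first, RASV12 minus shp53, shp53-first minus shp53, RASV12-first minus RASV12, RASV12-first minus shp53 and shp53-first minus RASV12, where 48%, 58.5%, 68.4%, 66.8%, 72.3% and 58.2% of all genes were called. On RASV12 replicate 2, 37 of the 42 were at least 2-fold above the mean of RASV12 replicates 1 and 3, against 5.05% of all genes. Their median excess there was 2.65 on the log2 scale, with a range from 0.54 (Ifit2) to 5.92 (Rsad2). A background correction by normexp left 1, 0, 1, 3, 0 and 4 members called in the same order of comparisons, and 4, 1, 22, 22, 11 and 31 once 75 spot values with a local background over 5 times their array's median were replaced. Of all genes, normexp called 0.0969%, 1.51%, 1.03%, 2.07%, 0.664% and 0.498% higher and 0.353%, 1.51%, 1.63%, 3.63%, 1.74% and 0.844% lower. With those spots replaced, 4.19%, 11.3%, 15.6%, 13.7%, 18.8% and 8.2% were higher and 4.8%, 9.54%, 14.7%, 15.5%, 17.8% and 10.6% lower. On shp53 replicate 2, 17 members were at least 2-fold below the mean of replicates 1 and 3, and none was 2-fold above. Of 14444 genes, 981 were 2-fold below there and 460 were 2-fold above.

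Over the 42 genes, the median level was 1.00, 1.54 and 1.46 in RASV12-first cells, 2.34, 2.32 and 2.28 in shp53-first cells, -1.03, 1.99 and -1.04 in RASV12 cells, and 0.63, -0.12 and 0.70 in shp53 cells. The median over all tested genes stayed between -0.40 and -0.31 on the 12 arrays. Both groups with 2 vectors thus lay above both groups with 1, apart from RASV12 replicate 2, which lay between the two-vector groups. By group mean, 34 members were highest in shp53-first cells, 6 in RASV12-first cells, 2 in shp53 cells and 0 in RASV12 cells, whereas 28 were lowest in RASV12 cells. The median SD of a member within its group was 0.24 in RASV12-first cells, 0.18 in shp53-first cells, 1.53 in RASV12 cells and 0.27 in shp53 cells, where the median gene had 0.28, 0.26, 0.19 and 0.17. In the RASV12 group 36 of the 42 exceeded the 95th percentile of SDs over all genes, and in the shp53 group 9 did.

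**Figure D1:**
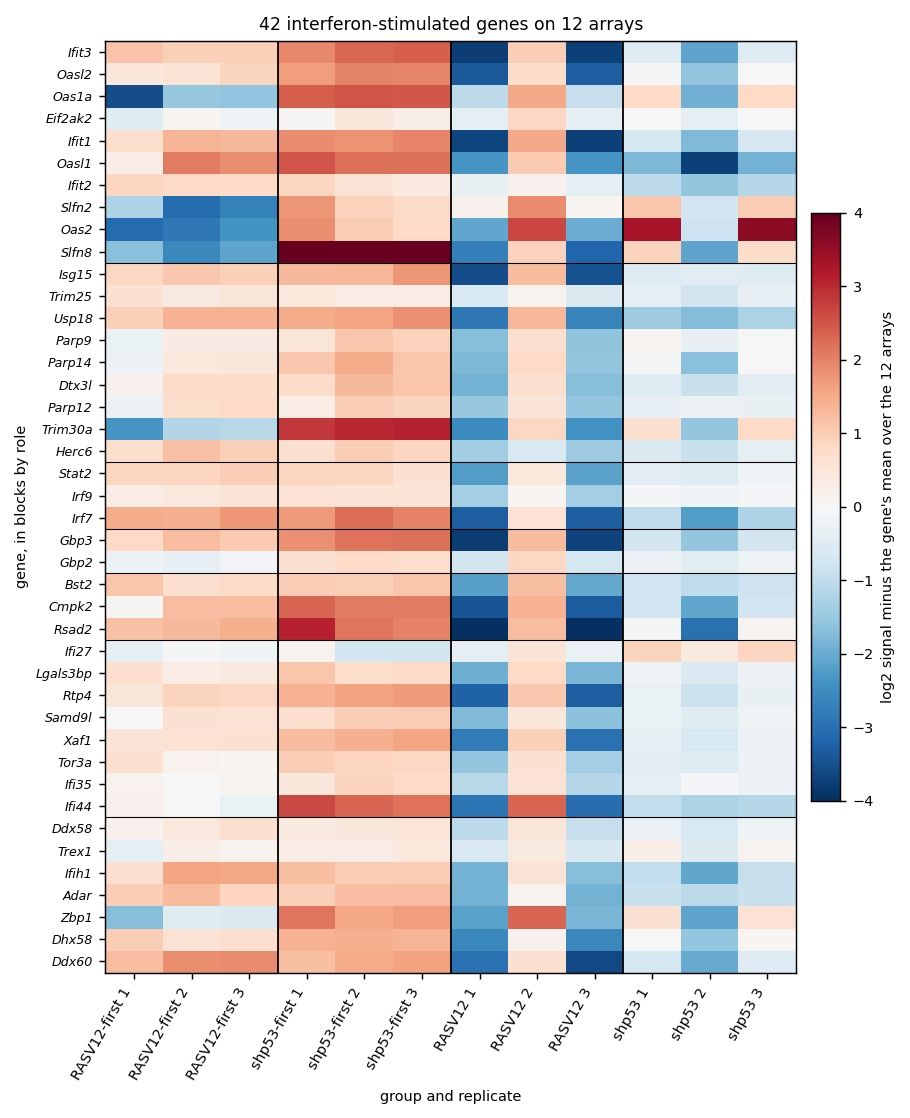
Levels of the 42 tested genes (rows, in blocks by role) on the 12 arrays (columns), as log2 signal minus each gene's mean over the arrays, with colours clipped at -4 and 4. Both two-vector groups are mostly red, RASV12 replicates 1 and 3 are blue, and RASV12 replicate 2 is red in most rows.

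**Figure D2:**
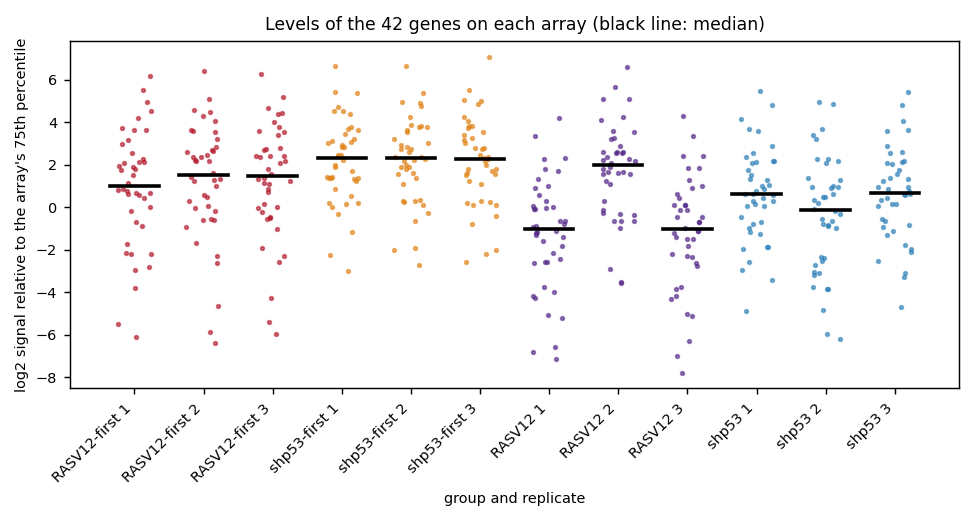
Each point is 1 of the 42 genes on 1 array, on the log2 scale relative to the array's 75th percentile, and black lines are medians. The medians lie between 2.28 and 2.34 on the shp53-first arrays and at -1.03, 1.99 and -1.04 on the RASV12 arrays.

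The list holds 3 transcription factors, and all 3 rose in RASV12-first cells against RASV12 cells, while against shp53 cells Irf7 alone of the 3 rose, in both two-vector groups. Irf7, the factor that amplifies interferon production, measured 0.63, 0.60 and 0.87 in RASV12-first cells, 0.85, 1.38 and 1.12 in shp53-first cells, -4.16, -0.28 and -4.15 in RASV12 cells, and -1.88, -3.09 and -2.10 in shp53 cells. Stat2, a subunit of the ISRE-binding complex, measured 3.64, 3.65 and 3.76 in RASV12-first cells, 3.65, 3.63 and 3.40 in shp53-first cells, 0.56, 3.20 and 0.65 in RASV12 cells, and 2.35, 2.27 and 2.62 in shp53 cells, and its partner Irf9 measured 2.56, 2.69 and 2.76 in RASV12-first cells, 2.85, 2.82 and 2.79 in shp53-first cells, 0.89, 2.37 and 0.91 in RASV12 cells, and 2.17, 2.09 and 2.20 in shp53 cells. For all 3 genes the RASV12-first arrays lay above every RASV12 array, and RASV12 replicates 1 and 3 were the lowest of the 12. On RASV12 replicate 2 each of the 3 came close to, but stayed below, the 6 two-vector arrays.

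ISG15 is a ubiquitin-like protein that enzymes attach to other proteins. Isg15, the tag itself, measured 6.17, 6.41 and 6.28 in RASV12-first cells, 6.64, 6.67 and 7.10 in shp53-first cells, 1.80, 6.59 and 1.84 in RASV12 cells, and 4.81, 4.87 and 4.81 in shp53 cells. Usp18, the protease that removes ISG15 and also restrains the interferon receptor, measured 3.18, 3.61 and 3.59 in RASV12-first cells, 3.69, 3.80 and 4.05 in shp53-first cells, -0.66, 3.54 and -0.45 in RASV12 cells, and 0.78, 0.48 and 0.94 in shp53 cells. RASV12 replicate 2 reached the two-vector range of Isg15 and Usp18, while replicates 1 and 3 lay below every shp53 array. Herc6, the main ISG15 ligase in mouse, measured -2.18, -1.70 and -1.92 in RASV12-first cells, -2.24, -1.90 and -2.01 in shp53-first cells, -4.27, -3.49 and -4.32 in RASV12 cells, and -3.41, -3.75 and -3.27 in shp53 cells. Trim25, a ubiquitin ligase that acts on the RNA sensor RIG-I, measured 4.56, 4.31 and 4.44 in RASV12-first cells, 4.38, 4.25 and 4.24 in shp53-first cells, 3.35, 4.10 and 3.38 in RASV12 cells, and 3.61, 3.22 and 3.62 in shp53 cells. In both of these the 6 two-vector arrays lay above the 6 others. Trim30a, a ubiquitin ligase, measured -3.79, -2.63 and -2.55 in RASV12-first cells, 1.38, 1.56 and 1.63 in shp53-first cells, -3.97, -0.63 and -3.85 in RASV12 cells, and -0.79, -3.03 and -0.65 in shp53 cells, and here the RASV12-first arrays lay below every shp53-first array, below RASV12 replicate 2 and below shp53 replicates 1 and 3.

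Among the RNA-binding and RNA-degrading effectors, the Ifit proteins bind viral RNA or its translation machinery. Ifit1 measured 1.81, 2.47 and 2.42 in RASV12-first cells, 3.01, 2.92 and 3.05 in shp53-first cells, -2.56, 2.62 and -2.62 in RASV12 cells, and 0.42, -0.66 and 0.45 in shp53 cells, and Ifit3, which stabilises Ifit1 in human cells, measured 3.74, 3.57 and 3.56 in RASV12-first cells, 4.55, 4.92 and 5.01 in shp53-first cells, -1.15, 3.60 and -1.13 in RASV12 cells, and 2.09, 0.51 and 2.11 in shp53 cells. Ifit2 measured 0.04, -0.01 and -0.03 in RASV12-first cells, 0.03, -0.27 and -0.42 in shp53-first cells, -1.11, -0.63 and -1.21 in RASV12 cells, and -1.85, -2.37 and -1.96 in shp53 cells. For Ifit2 the 4 groups did not overlap except for the RASV12-first and shp53-first arrays, and RASV12 replicate 2 was 0.54 above the mean of its group's other arrays. Oasl1, a synthetase-like protein that limits Irf7 translation in mouse, measured 0.83, 2.64 and 2.41 in RASV12-first cells, 3.07, 2.77 and 2.75 in shp53-first cells, -1.80, 1.61 and -1.80 in RASV12 cells, and -1.24, -3.17 and -1.32 in shp53 cells. Its relative Oasl2 measured 2.26, 2.35 and 2.69 in RASV12-first cells, 3.47, 3.78 and 3.75 in shp53-first cells, -1.57, 2.54 and -1.49 in RASV12 cells, and 1.75, 0.22 and 1.78 in shp53 cells. For both of these, Ifit1 and Ifit3, the 6 two-vector arrays lay above every shp53 array, while RASV12 replicate 2 lay within or near their range.

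Some other effectors of RNA lay lower in RASV12-first cells than in shp53-first cells on every array. Oas1a, an oligoadenylate synthetase that activates the RNA-degrading enzyme RNase L, measured -2.18, -0.17 and -0.23 in RASV12-first cells, 3.79, 3.89 and 3.83 in shp53-first cells, 0.32, 2.87 and 0.45 in RASV12 cells, and 2.15, -0.56 and 2.15 in shp53 cells. Oas2, of the same family, measured -6.08, -5.86 and -5.41 in RASV12-first cells, -1.14, -1.99 and -2.21 in shp53-first cells, -5.07, -0.33 and -5.00 in RASV12 cells, and 0.29, -3.85 and 0.57 in shp53 cells, and only 1 of the 3 RASV12-first arrays was well above background. The Schlafen gene Slfn8 measured -5.50, -6.40 and -5.95 in RASV12-first cells, 0.14, 0.11 and 0.11 in shp53-first cells, -6.58, -2.92 and -7.00 in RASV12 cells, and -2.96, -5.96 and -3.11 in shp53 cells, with 2 of 3 RASV12-first arrays and 1 of 3 RASV12 arrays well above background. For each of Oas1a, Oas2 and Slfn8 every shp53-first array lay above every RASV12-first array. Slfn2, a Schlafen protein that keeps T cells quiescent in mouse, measured -2.82, -4.64 and -4.27 in RASV12-first cells, 0.20, -0.64 and -0.80 in shp53-first cells, -1.39, 0.32 and -1.48 in RASV12 cells, and -0.46, -2.34 and -0.55 in shp53 cells, the lowest levels being the 3 of RASV12-first cells. A probe for Oas1a, Slfn8, Ifit3, Gbp2, Gbp3 or Trim30a may also take signal from close paralogues.

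Of 7 sensors of nucleic acid and their regulators, 4 rose in shp53-first cells against shp53 cells (17.3% of all genes) and 4 in RASV12-first cells against RASV12 cells (17.2%). Adar, which edits double-stranded RNA, measured 1.93, 2.22 and 1.81 in RASV12-first cells, 1.91, 2.17 and 2.18 in shp53-first cells, -0.94, 1.10 and -0.95 in RASV12 cells, and 0.05, -0.08 and 0.07 in shp53 cells. Ddx60, a helicase linked to RNA sensing, measured -2.95, -2.31 and -2.29 in RASV12-first cells, -2.98, -2.69 and -2.56 in shp53-first cells, -7.15, -3.57 and -7.78 in RASV12 cells, and -4.87, -6.19 and -4.69 in shp53 cells, and only RASV12 replicate 2 was well above background in the RASV12 group. Zbp1, a sensor of Z-form nucleic acid, measured -2.14, -0.93 and -1.00 in RASV12-first cells, 1.71, 1.12 and 1.25 in shp53-first cells, -2.57, 1.89 and -2.27 in RASV12 cells, and 0.17, -2.53 and 0.14 in shp53 cells, so RASV12-first cells lay below shp53-first cells and overlapped both single-vector groups. Trex1, an exonuclease that degrades cytosolic DNA, measured 1.54, 2.20 and 2.08 in RASV12-first cells, 2.24, 2.21 and 2.35 in shp53-first cells, 1.33, 2.30 and 1.30 in RASV12 cells, and 2.20, 1.40 and 2.04 in shp53 cells, with the shp53-first arrays just above every shp53 and RASV12-first array and RASV12 replicate 2 among them.

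Among the remaining effectors, Rsad2 (viperin, which makes a chain-terminating nucleotide) had the widest range of the 42 members over the 12 arrays, its lowest values not well above background. It measured -0.70, -0.58 and -0.45 in RASV12-first cells, 1.23, 0.28 and 0.13 in shp53-first cells, -6.82, -0.63 and -6.28 in RASV12 cells, and -1.95, -4.85 and -1.75 in shp53 cells, and RASV12 replicates 1 and 3 were not well above background. Bst2 (tetherin, which holds virus particles at the cell surface) measured 5.53, 5.10 and 5.20 in RASV12-first cells, 5.42, 5.38 and 5.53 in shp53-first cells, 2.27, 5.65 and 2.40 in RASV12 cells, and 3.67, 3.43 and 3.60 in shp53 cells. Both were high on RASV12 replicate 2, where Bst2 exceeded every other array. Gbp2, an interferon-inducible GTPase, measured 0.56, 0.48 and 0.71 in RASV12-first cells, 1.44, 1.60 and 1.51 in shp53-first cells, 0.08, 1.65 and 0.11 in RASV12 cells, and 0.59, 0.37 and 0.61 in shp53 cells. Ifi44 measured 0.46, 0.32 and 0.03 in RASV12-first cells, 2.95, 2.63 and 2.47 in shp53-first cells, -2.62, 2.63 and -2.76 in RASV12 cells, and -0.67, -0.97 and -0.85 in shp53 cells, and Ifi35 measured 1.13, 0.99 and 1.12 in RASV12-first cells, 1.44, 1.88 and 1.80 in shp53-first cells, -0.10, 1.59 and -0.13 in RASV12 cells, and 0.63, 0.92 and 0.76 in shp53 cells. The shp53-first arrays and RASV12 replicate 2 were the highest for Ifi44, and for Gbp2 all shp53-first arrays were above all RASV12-first arrays.

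A secreted glycoprotein of the list, Lgals3bp, measured 4.94, 4.59 and 4.67 in RASV12-first cells, 5.38, 4.97 and 5.06 in shp53-first cells, 2.32, 5.09 and 2.44 in RASV12 cells, and 4.14, 3.69 and 4.06 in shp53 cells, lowest on RASV12 replicates 1 and 3. Ifi27 went the other way. It measured 4.20, 4.51 and 4.39 in RASV12-first cells, 4.71, 3.81 and 3.85 in shp53-first cells, 4.20, 5.08 and 4.31 in RASV12 cells, and 5.46, 4.97 and 5.42 in shp53 cells, so the shp53 arrays and RASV12 replicate 2 were higher than every two-vector array. Ifi27 and Oas2 were the 2 members with their highest group mean in shp53 cells.

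The remaining 14 members were the RNA sensors Ifih1, Ddx58 and Dhx58, the kinase Eif2ak2, the ADP-ribose and ubiquitin enzymes Parp9, Parp12, Parp14 and Dtx3l, the GTPase Gbp3, the nucleotide kinase Cmpk2, and Xaf1, Rtp4, Samd9l and Tor3a. Of these 14, 6 rose in shp53-first cells against shp53 cells (17.3% of all genes), 5 in RASV12-first cells against RASV12 cells (17.2%), 12 in shp53-first cells against RASV12 cells (10.3%) and 1, Ifih1, in RASV12-first cells against shp53 cells (21.7%). None fell in any of the 6 comparisons, and between the orders of the vectors their differences ran from -1.32 to 0.18 with 0 called. The dim members left out of the test were Oas3, at -7.35, -7.06 and -6.68 in RASV12-first cells, -6.28, -6.25 and -6.52 in shp53-first cells, -7.40, -4.24 and -6.85 in RASV12 cells, and -4.44, -7.49 and -4.55 in shp53 cells, and Slfn5, at -7.83, -8.33 and -8.48 in RASV12-first cells, -8.25, -8.69 and -7.73 in shp53-first cells, -8.44, -8.00 and -8.38 in RASV12 cells, and -6.25, -8.52 and -7.15 in shp53 cells. Oas3 passed the scanner's background test on 1 RASV12 array and 2 shp53 arrays, and Slfn5 on none.

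Adding the RASV12 vector to cells that already carried the shp53 vector went with higher levels of interferon-stimulated genes. In shp53-first cells against shp53 cells, 20 of 42 members rose and 1 fell (limma, Benjamini-Hochberg adjusted p under 0.05 over all tested genes), where 17.3% of all genes rose and 20.3% fell. The median difference of the members was 1.85 on the log2 scale, against 0.03 for all genes, and 40 of 42 were positive. By slide, which held 1 array of each group, the median difference was 1.55, 2.14 and 1.54. Oasl1 rose 27.4-fold (4.78 ± 0.89 on the log2 scale, SE, adjusted p = 0.00221), Slfn8 17.5-fold (adjusted p = 0.0105), Ifi44 11.4-fold (adjusted p = 0.0317) and Irf7 11.1-fold (adjusted p = 0.00968). For Slfn8 a second probe gave a smaller rise, 2.04 on the log2 scale in place of 4.13.

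The risers covered most roles: 5 of 10 RNA effectors, 6 of 9 genes of the ISG15, ubiquitin and ADP-ribose group, 4 of 7 sensors, both guanylate-binding proteins, 1 of 3 transcription factors, 1 of 3 membrane and nucleotide effectors, and 1 of 8 in the remaining group. Ifit3 rose 9.58-fold (adjusted p = 0.0329), Usp18 8.66-fold (adjusted p = 0.0179) and the sensor Ifih1 5.3-fold (adjusted p = 0.00913). Ifi27 fell by 1.16 on the log2 scale (SE 0.29, adjusted p = 0.0111). The smallest called rise was that of Trim25, 0.81 ± 0.20 on the log2 scale (adjusted p = 0.0113). Isg15 was 3.93-fold higher but did not pass (adjusted p = 0.147), although its groups did not overlap. The spread in this fit is shared with the RASV12 group: with the 2 groups fitted alone, 36 members rose (15.4% of all genes) and Isg15 passed (adjusted p = 7.72e-04). Without RASV12 replicate 2, 37 members rose and 1 fell, where 17.7% of all genes rose and 20.8% fell. Without any single array of the 2 groups, 8 to 11 members rose and 1 fell. In those settings 11.3% to 18.9% of all genes rose and 15% to 20.9% fell. With the closest arrays of each group averaged into 1, 3 members rose (4.8% of all genes).

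Apart from Itgam, the macrophage markers were lower in shp53-first cells than in shp53 cells, and within the shp53 group they were high on replicates 1 and 3. Itgam measured 3.07, 2.85 and 3.39 in shp53-first cells and 3.40, 2.84 and 3.12 in shp53 cells. Csf1r measured -2.29, -1.34 and -0.97 in shp53-first cells and 4.45, 0.75 and 4.48 in shp53 cells and Adgre1 -7.74, -8.33 and -7.35 in shp53-first cells and 3.21, -1.73 and 3.19 in shp53 cells. On shp53 replicate 2, where these markers were lower too, 17 members were at least 2-fold lower, as were 981 of 14444 genes. Among these members Oas2 was lowest relative to the others, by 4.28 on the log2 scale, followed in order by Rsad2, Slfn8 (2.93), Oas1a (2.71), Zbp1 (2.69) and Trim30a (2.31). The part of the macrophage markers in these differences was not tested. On the shp53-first arrays Csf1r, Itgam, C1qb and Fcer1g were well above background on all 3, Mrc1 on 2 and Lyz2 on 1, and the other 6 of the 12 markers on none.

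**Figure D3:**
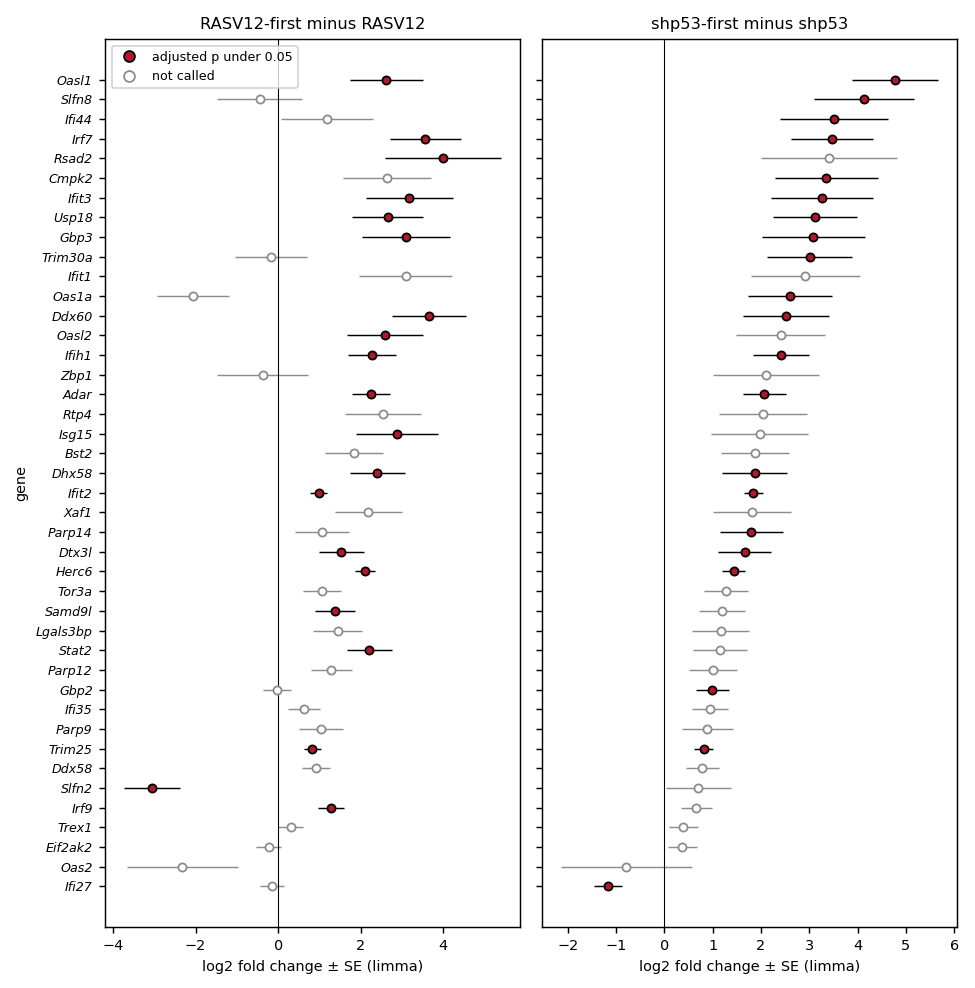
Log2 fold changes (points) with standard errors (bars) from limma for the 42 genes, RASV12-first minus RASV12 on the left and shp53-first minus shp53 on the right. Oasl1 rose 4.78 on the right, and Slfn2 fell by 3.06 on the left.

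Adding the shp53 vector to cells that already carried the RASV12 vector also went with higher levels, measured against a group whose arrays disagreed. In RASV12-first cells against RASV12 cells 19 members rose and 1 fell, where 17.2% of all genes rose and 21.7% fell. The median difference was 1.41 (all genes -0.07), and by slide it was 2.17, -0.16 and 2.39, the middle value being the slide of RASV12 replicate 2. Rsad2 (difference 4.00 ± 1.41, adjusted p = 0.0452) and Ddx60 (3.65 ± 0.89, adjusted p = 0.00905) rose, each well above background on only 1 of the 3 RASV12 arrays, so that the size is not well measured. Irf7 rose 11.8-fold (adjusted p = 0.00822) and Ifit3 9.09-fold (adjusted p = 0.0351). These folds average RASV12 arrays that disagreed, and Ifit3 on RASV12 replicate 2, at 3.60, lay within the RASV12-first range. The 2 groups overlapped likewise for the called Isg15, Oasl1, Oasl2, Rsad2, Usp18, Dtx3l, Samd9l and Gbp3.

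All 3 transcription factors rose, Stat2 by 2.21 ± 0.55 (adjusted p = 0.0103) and Irf9 by 1.28 ± 0.32 (adjusted p = 0.0109), as did 4 of 7 sensors, 5 of 9 genes of the ISG15 group and 4 of 10 RNA effectors. Herc6 rose 4.28-fold (adjusted p = 1.04e-04) and passed under all 25 alternatives tried in which it was tested, as did Oasl1 in shp53-first cells against shp53 cells and no other called difference of a member. Slfn2 fell by 3.06 (SE 0.67, adjusted p = 0.00519). Among the 9 members below 0, Oas1a (-2.07), Oas2 (-2.32) and Slfn8 (-0.45) did not pass. Without RASV12 replicate 2, 33 members rose (15% of all genes) and 1 fell, and Isg15 was higher by 4.47 ± 0.16 (SE) on the log2 scale in place of 2.88 ± 1.00. Without RASV12 replicate 1 or 3, 9 members rose and 1 fell (12.1% and 12.6% of all genes rose). Without RASV12-first replicate 2 or 3, 10 rose and 1 fell (12.7% and 12.6% of all genes rose). Without shp53-first replicate 2 or 3 or shp53 replicate 3, 12 rose and 1 fell (15.8%, 16.2% and 15.3% of all genes rose). With the closest arrays averaged 1 member rose (3.41% of all genes).

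Between the 2 orders of the same vectors few members were called, at a share for lower levels near that of all genes. In RASV12-first cells against shp53-first cells 4 members fell and 0 rose, where 8.47% of all genes fell and 7.33% rose. The 4 were Slfn8 (difference -6.07 ± 1.03, adjusted p = 0.00295, with 2 of 3 RASV12-first arrays well above background), Oas1a, lower by 25.9-fold (-4.69 ± 0.87, adjusted p = 0.00495), Trim30a, lower by 22.8-fold (-4.51 ± 0.88, adjusted p = 0.00624), and Slfn2, lower by 11.3-fold (-3.49 ± 0.67, adjusted p = 0.00567). A second Slfn8 probe gave a smaller difference, -2.65 on the log2 scale. At an unadjusted p under 0.05 the count was 7. The share of members called lower, 9.52%, was near that of all genes.

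The other 38 members did not pass. The median over all 42 was -0.62 (all genes 0.00), with values of -0.61, -0.64 and -0.58 by slide, and 35 of the 42 lay below 0. For 29 members, the 4 called ones among them, every RASV12-first array lay below every shp53-first array, against 16.1% of all genes. Isg15 differed by -0.52 ± 1.00 (adjusted p = 0.785), and by -0.52 ± 0.14 (adjusted p = 0.0365) without RASV12 replicate 2, its groups not overlapping. Irf7 differed by -0.42 ± 0.85 (adjusted p = 0.798) and Stat2 by 0.12 ± 0.55 (adjusted p = 0.916). Oas2 (-4.00 ± 1.35, adjusted p = 0.0726), Zbp1 (-2.72 ± 1.10, adjusted p = 0.13) and Ifi44 (-2.41 ± 1.12, adjusted p = 0.186) had large differences that did not pass. Arrays of these 2 groups with the same number deviated together, and with the groups fitted alone 13 members fell (6.22% of all genes), 15 with the replicate number as a block (9.63%). Without RASV12 replicate 2 the number that fell was 14 (9.02% of all genes). With the closest arrays averaged 0 members did (limma, with 4 at an unadjusted p under 0.05), against 2.28% of all genes.

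**Figure D4:**
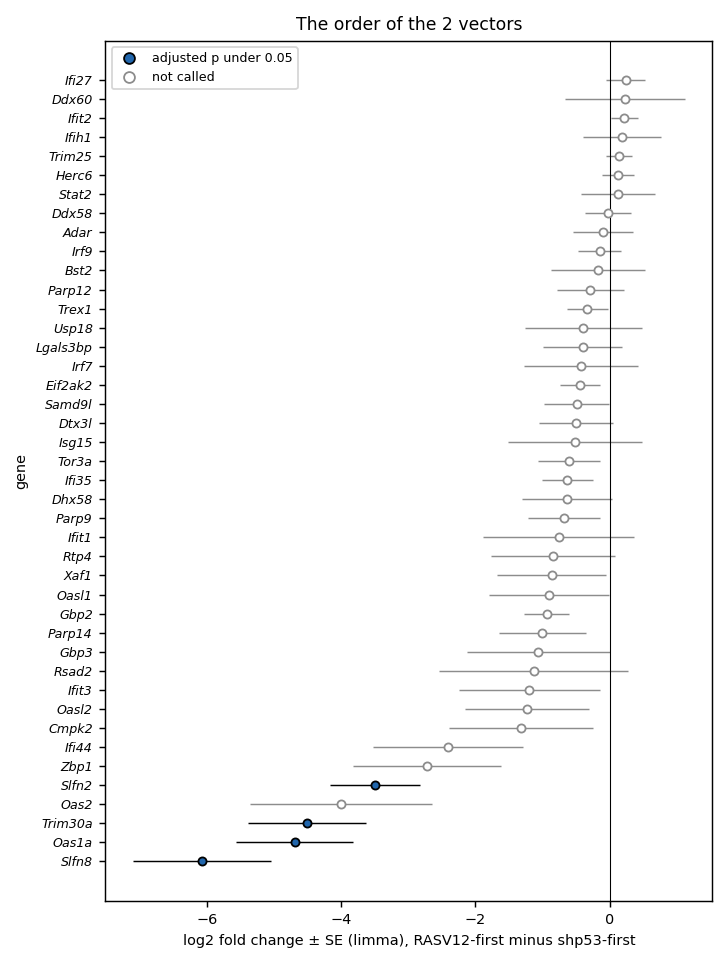
Log2 fold changes (points) with standard errors (bars) from limma, RASV12-first minus shp53-first, for the 42 genes in order of size. Slfn8, Oas1a, Trim30a and Slfn2 are the 4 that fell, and 35 of 42 points lie below 0.

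The comparison with the most members called was shp53-first cells against RASV12 cells. There 32 members rose and 0 fell, where 10.3% of all genes rose and 15.1% fell, and the median difference was 2.09 (all genes -0.05). By slide it was 3.12, 0.45 and 2.98. Ifit3 rose 20.9-fold (adjusted p = 0.0134) and Trim30a 20.2-fold (adjusted p = 0.00598). Slfn8 (adjusted p = 0.00368) and Rsad2 (adjusted p = 0.0239) rose too, by 5.62 and 5.12 on the log2 scale, but each was well above background on only 1 of the 3 RASV12 arrays, so the size is not well measured. From a second Slfn8 probe the rise was 1.30. All 9 genes of the ISG15, ubiquitin and ADP-ribose group rose, as did 3 of 3 transcription factors, 7 of 8 in the remaining group and 6 of 10 RNA effectors. The smallest called rises were those of Trim25 (0.68 ± 0.20, adjusted p = 0.0336) and Ifit2 (0.76 ± 0.20, adjusted p = 0.0181). The number that rose was 7 without RASV12 replicate 1 or 3 (5.59% and 5.55% of all genes). It was 11 without shp53-first replicate 2 (6.13%) and 12 without shp53-first replicate 3 (6.73%). With RASV12 replicate 2 left out 38 rose (9.41% of all genes), and with the 2 groups fitted alone 9 did (8.46%). With the closest arrays averaged 0 members did (limma, 11 at an unadjusted p under 0.05), against 0.81% of all genes.

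RASV12-first cells against shp53 cells gave a mixed picture. Here 9 members rose and 3 fell, where 21.7% of all genes rose and 23.8% fell, so the share of members called, 21.4% higher and 7.14% lower, did not exceed the background. Ifit2 rose 4.17-fold (adjusted p = 2.21e-05), Oasl1 14.6-fold (adjusted p = 0.00541), Irf7 8.31-fold (adjusted p = 0.0145) and Adar 3.93-fold (adjusted p = 0.00496). For Adar a second probe gave 1.00 on the log2 scale in place of 1.98. Oas2 fell by 4.79 (SE 1.35, adjusted p = 0.0151), Slfn2 by 2.79 (SE 0.67, adjusted p = 0.00667) and Ifi27 by 0.91 (SE 0.29, adjusted p = 0.0268). The median difference was 1.03 (all genes 0.02), and 0.80, 1.46 and 0.86 by slide. With the 2 groups fitted alone 25 members rose (18.9% of all genes) and 3 fell. Without RASV12 replicate 2, 28 rose (22.1% of all genes) and 5 fell (24.1%).

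Between the single vectors, the result turned on 1 array. In RASV12 cells against shp53 cells only Ifit2 was called, 2.11-fold higher (1.08 ± 0.20, adjusted p = 0.00256), where 14.3% of all genes rose and 12.8% fell. The median difference was -0.56 (all genes 0.05), and by slide it was -1.76, 1.84 and -1.58, so RASV12 replicate 2 had the opposite sign to the others. Without that array 32 members were lower (11.5% of all genes) and 1 was higher, with Isg15 lower by 3.01 (SE 0.16, adjusted p = 8.11e-06) and Stat2 by 1.80 (SE 0.15, adjusted p = 5.33e-05). Without shp53-first replicate 1 or shp53 replicate 2 the number called was 2 (16% and 14% of all genes rose, 14.4% and 12.7% fell). Trp53 was -0.75 on replicate 2 and -0.35 and -0.58 on replicates 1 and 3. The median macrophage marker was -3.22 on replicate 2 and -3.62 and -3.57 on replicates 1 and 3. In the same order, the markers' summed signal was 4.32, 3.61 and 3.05 on the log2 scale. Single markers differed more: Adgre1 was -1.81, -3.75 and -3.69, and C1qc was -3.78, -5.75 and -5.58. Csf1r (-0.61, 0.09 and 0.02) and Lyz2 (-3.03, -2.88 and -2.86) were lower on replicate 2. The part of Trp53 or of the macrophage markers in the difference was not tested.

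Over the 4 groups together, 31 of the 42 members differed (limma F-test), against 58.4% of all genes. The 11 that did not pass were Ifi44, Ifi35, Ddx58, Zbp1, Parp9, Parp12, Parp14, Eif2ak2, Gbp2, Trex1 and Lgals3bp, of which Eif2ak2, the kinase PKR that stops translation, had the least evidence of a difference (adjusted p = 0.533). The count was 17 without shp53-first replicate 2 or 3 or RASV12 replicate 3 (52.1%, 53.4% and 50.3% of all genes), and 19 without RASV12 replicate 1 (49.6%). Comparisons that name a common group share its 3 arrays, whereas shp53-first minus shp53 and RASV12-first minus RASV12 share none. Of members with a promoter window, the 15 tested with an ISRE core had median differences of 2.51 in shp53-first minus shp53 and 2.21 in RASV12-first minus RASV12, and the 18 without had 1.54 and 1.41, given as a description. The numbers called higher were 8 and 7 of the 15 with the core, and 9 and 10 of the 18 without.

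Of 36 other genes of the interferon pathway, 30 were tested. Ifnb1, interferon beta itself, measured -3.55, -4.70 and -5.46 in RASV12-first cells, -2.14, -3.23 and -3.10 in shp53-first cells, -8.44, -4.34 and -8.37 in RASV12 cells, and -8.28, -8.28 and -8.51 in shp53 cells, and it was well above background on all 6 two-vector arrays, on RASV12 replicate 2 and on no other. It was at least 10.2-fold higher in shp53-first cells than in shp53 cells (adjusted p = 0.00128) and RASV12-first cells exceeded shp53 cells by a factor of at least 3.05 (adjusted p = 0.00831), bounds set by the dimmest probes detected on the shp53 arrays. The 5 probes for Ifna2, Ifna4, Ifnk, Ifng and Ifne did not pass the filter. The array on which the RASV12 group's interferon-stimulated genes were high was thus also the one with detected Ifnb1.

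In shp53-first cells against shp53 cells 8 of the 30 pathway genes rose and 3 fell (17.3% and 20.3% of all genes), and in RASV12-first cells against RASV12 cells 9 rose and 7 fell (17.2% and 21.7%). The counts were 7 and 7 in RASV12-first cells against shp53 cells (21.7% and 23.8%), 9 and 2 in shp53-first cells against RASV12 cells (10.3% and 15.1%), and 2 and 3 in RASV12 cells against shp53 cells (14.3% and 12.8%). Socs1, an inhibitor of the receptor's kinases that interferon induces, measured 0.66, 0.73 and 0.73 in RASV12-first cells, 0.71, 0.78 and 0.78 in shp53-first cells, -0.70, -0.21 and -0.53 in RASV12 cells, and -0.32, -0.32 and -0.49 in shp53 cells, higher on all two-vector arrays than on any other (adjusted p = 1.44e-04 and 1.18e-04 in the 2 comparisons). Cgas, the sensor of cytosolic DNA, rose 2.39-fold (adjusted p = 0.0183) and 2.41-fold (adjusted p = 0.0169), and Ifi204, another DNA sensor, rose 4.51-fold (adjusted p = 0.0312) and 4.06-fold (adjusted p = 0.0402).

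Receptor and receptor kinase genes moved in both directions. Ifngr2, a subunit of the interferon gamma receptor, rose 2.05-fold in shp53-first cells against shp53 cells (adjusted p = 0.00128) and was 1.59-fold lower in RASV12-first cells against RASV12 cells (adjusted p = 0.0132). The kinase Jak2 rose 1.76-fold in RASV12-first cells against RASV12 cells (adjusted p = 0.00424) and 1.48-fold in shp53-first cells against RASV12 cells (adjusted p = 0.0347). Ifnar1 measured 0.03, -0.40 and -0.38 in RASV12-first cells, 1.16, 0.25 and 0.28 in shp53-first cells, 1.10, 1.28 and 1.17 in RASV12 cells, and 0.85, 0.74 and 0.94 in shp53 cells, and fell by 1.43 in RASV12-first cells against RASV12 cells (SE 0.23, adjusted p = 9.48e-04), with Ifnar2 down by 0.68 (adjusted p = 0.0361). Jak1 fell by 0.79 in shp53-first cells against shp53 cells (adjusted p = 0.00511) and by 0.66 in RASV12-first cells against RASV12 cells (adjusted p = 0.0121). Irf3, which triggers Ifnb1 transcription, measured 2.27, 2.59 and 2.53 in RASV12-first cells, 2.19, 2.44 and 2.57 in shp53-first cells, 2.64, 2.68 and 2.75 in RASV12 cells, and 2.51, 2.57 and 2.61 in shp53 cells, and did not pass in any of the 6 comparisons. Ikbke, a kinase that activates Irf3 and Irf7, measured -1.91, -2.92 and -2.46 in RASV12-first cells, -1.66, -2.03 and -2.31 in shp53-first cells, -1.47, -1.79 and -1.51 in RASV12 cells, and -3.57, -3.26 and -3.45 in shp53 cells, and rose 2.69-fold in shp53-first cells against shp53 cells (adjusted p = 0.00155) but was 1.79-fold lower in RASV12-first cells against RASV12 cells (adjusted p = 0.0232). Between the orders of the vectors 4 pathway genes fell and 0 rose in RASV12-first cells (8.47% and 7.33% of all genes), namely Ifnar1, Ifngr2, Il10rb and Myd88.

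**Figure D5:**
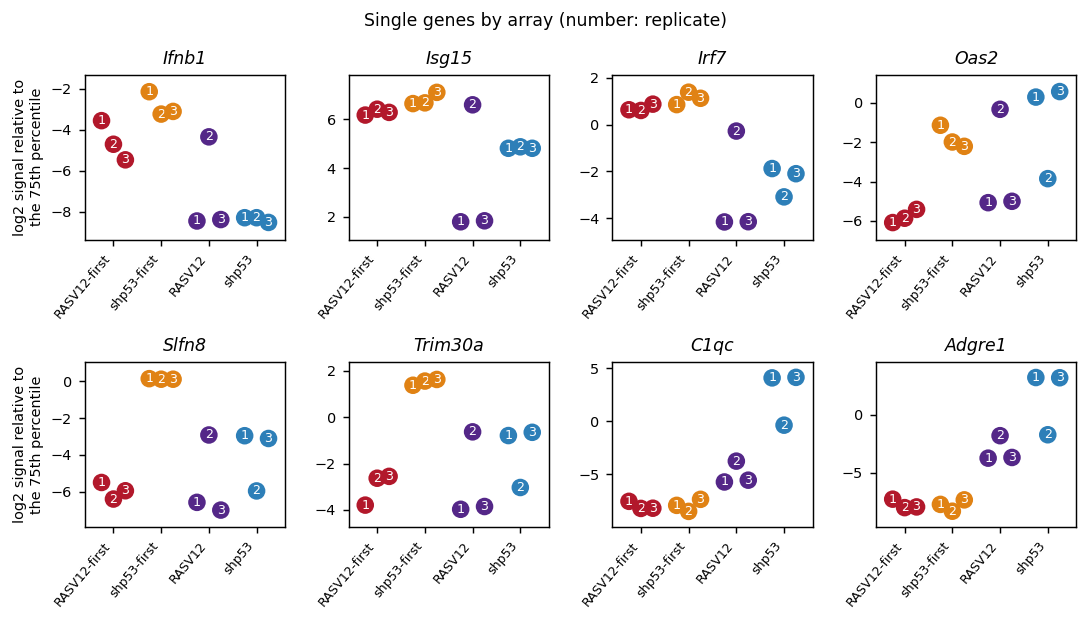
Levels of 8 genes by group on the log2 scale relative to the array's 75th percentile, with the replicate number in each point. Ifnb1 on RASV12 replicate 2 lies at -4.34, against -8.44 and -8.37 on replicates 1 and 3, and the macrophage genes C1qc and Adgre1 are highest on shp53 replicates 1 and 3.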

How the data were processed

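Total RNA from the 12 samples was hybridised to 1-colour (Cy3) Agilent arrays, from 100 ng each per the labels' protocols. The deposited scanner tables hold intensity per spot as Agilent Feature Extraction wrote it, background-subtracted (version 11.5.1.1 per the file headers, 10.7.3.1 per the submitters' processing notes), with flags per spot that the authors deposited beside it. The authors' deposited log2 table correlated at 0.9997 or above with these values and served as an alternative.

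Processed signals were set relative to each array's 75th percentile and log2 transformed. Flagged outlier spots (0.333%) were left out, spots of a probe were averaged, and probes had to be well above background in at least 0.5 of their spots on all 3 arrays of a group. The brightest probe represented a gene, named through RefSeq accessions (28330 probes named, 11099 not). limma 3.58.1 fitted 1 mean a group to all 12 arrays and was tested on simulated data, and its p-values measure the spread between arrays. The called members with the 4 highest and 4 lowest log2 fold changes of each comparison, and a chosen set of 15, are given array by array.

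Members and lists were chosen with earlier results of these data known. Replicate number equals slide. Same-numbered RASV12-first and shp53-first arrays deviated together (r = 0.60, 0.45 and 0.32 over genes), so those numbers pair the 2 groups, and in the other 5 comparisons they did not. The normexp alternative used median signals, since the tables used here hold no mean signal. Alternatives varied the background correction, scaling, probe filter, probe choice, spread model, groups in the fit and arrays left out.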

Additional observations from a re-analysis of the deposited data

How the results depend on the processing

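The number of the 42 members called (4 in RASV12-first minus shp53-first, 1 in RASV12 minus shp53, 21 in shp53-first minus shp53, 20 in RASV12-first minus RASV12, 12 in RASV12-first minus shp53, 32 in shp53-first minus RASV12 and 31 by the F-test) depended on arrays and on the model of spread. In that order, leaving out 1 array gave 4 to 14, 1 to 33, 9 to 38, 10 to 34, 8 to 33, 7 to 38 and 17 to 40. In the 6 comparisons 4.22% to 8.24%, 9.86% to 17.5%, 11.3% to 20.5%, 12.1% to 19%, 15.3% to 24.5% and 5.55% to 13.1% of all genes rose. Those that fell made up 5.89% to 11.2%, 8.98% to 15.1%, 15% to 22.9%, 16.6% to 24.7%, 19.2% to 26.7% and 9.28% to 18.3%. The F-test called 47.5% to 65.6% of all genes in those settings. Normexp gave 1, 0, 1, 3, 0, 4 and 5 (5 and 7 at an unadjusted p under 0.05 where limma called 0), and 4, 1, 22, 22, 11, 31 and 32 with extreme local backgrounds replaced. Of all genes, the F-test then called 5.7% with normexp and 47.4% with the backgrounds replaced. Quantile scaling gave 2 in RASV12 minus shp53 (13.8% of all genes rose and 13.4% fell). No filter gave 11 in RASV12-first minus RASV12 (9.8% of all genes rose and 13.2% fell). With the replicate block the counts were 4, 1, 16, 17, 12, 29 and 27. There 7.16%, 14.3%, 17.9%, 17.8%, 22.1% and 10.8% of all genes rose and 8.53%, 13%, 20.5%, 21.7%, 24% and 15.1% fell, and the F-test called 58.5%. Fitting 2 groups alone gave 13 in RASV12-first minus shp53-first (15 with the replicate block), 37 in shp53-first minus shp53, 9 in RASV12-first minus RASV12, 28 in RASV12-first minus shp53 and 9 in shp53-first minus RASV12. In the same order 3.34% (7.66% with the block), 15.4%, 14.1%, 18.9% and 8.46% of all genes rose. Those that fell made up 6.22% (9.63% with the block), 18.4%, 19.1%, 21.7% and 13.2%. Averaging the closest arrays of each group gave 0, 0, 3, 1, 2, 0 and 2 (4, 1, 13, 7, 8, 11 and 11 at an unadjusted p under 0.05), and leaving out the 4 arrays that stand apart gave 31, 42, 40, 40, 39, 42 and 42. In these settings 17.3% and 85.6% of all genes were called by the F-test. With the closest arrays averaged, 0.651%, 3.8%, 4.8%, 3.41%, 6.78% and 0.81% of all genes rose and 2.28%, 3.33%, 6.98%, 6.91%, 10.4% and 1.91% fell. The averaging, the arrays that stand apart, the replaced backgrounds and the blocked fit of 2 groups were chosen after seeing the data. Apart from the replaced backgrounds, causes were not tested.

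Of single-gene values, 5423 kept their direction and side of the threshold, 536 lost the call, 344 gained it and 15 turned. In shp53-first minus shp53, Ddx60 was -0.03 with normexp. Leaving out 1 array gave -1.29 to 0.81 for Usp18 and -0.43 to 0.36 for Gbp2 in RASV12 minus shp53, and -0.30 to 0.49 for Gbp2 in RASV12-first minus RASV12, the called ones of opposite sign being those without RASV12 replicate 2. Without the arrays that stand apart, RASV12 minus shp53 was -0.52 for Oasl1, -1.41 for Usp18, -0.85 for Ifih1, -0.36 for Eif2ak2, -0.25 for Trim25, -0.51 for Gbp2 and -0.93 for Slfn2, and RASV12-first minus RASV12 was 1.46 for Zbp1, 1.32 for Trim30a, 0.50 for Gbp2 and 0.61 for Slfn8. A gene's probes differed in sign only where none was called in the fit as reported: Oas1a and Slfn8 in RASV12 minus shp53, and Ifih1, Herc6 and Adar in RASV12-first minus shp53-first. The slide as a separate block was not run because it equals the replicate number. Dim genes such as Slfn8 and Ddx60 lie near background on some arrays, where their levels are bounds.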
